A study of Caenorhabditis elegans with 12 samples.

Results

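Palindromic and terminal-inverted repeats are short stretches of the Caenorhabditis elegans genome whose ends, or whose whole length, read the same on both strands, and they occur as families of similar copies. The families described here are those in the deposited count table whose names begin with PAL, LONGPAL or TIR. They comprise 11522 copies in 34 families, out of 53925 repeat copies in the table. PAL names account for 23 families with 9082 copies, LONGPAL names for 3 families with 620 copies, and TIR names for 8 families with 1820 copies. Many such elements are thought to be remnants of DNA transposons that cannot move without an enzyme supplied from elsewhere. Because an RNA copied from an inverted repeat can fold back on itself into double-stranded RNA, these elements are known substrates of adenosine deaminases and of the RNA interference machinery in worms. Repeats of this kind are also held silent by methylation of histone H3 at lysine 9, which the methyltransferases MET-2 and SET-25 deposit in C. elegans. The copy names carry no sequence, so no repeat sequence is shown.

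RNA was sequenced from whole, synchronized gravid adult worms in 4 groups of 3 libraries, each library made from 3 plates. F3 worms were wild-type N2 whose ancestors had spent 5 generations at 25 °C and which had then been kept at 20 °C for 3 generations, and they were collected after 72 to 76 hours. F0 worms were wild-type N2 in the fifth generation at 25 °C, collected after 54 to 56 hours. The set-25 worms were the strain MT17463, which carries set-25(n5021), grown only at 20 °C and collected after 72 to 76 hours; they represent 1 mutant strain. Control worms were wild-type N2 kept at 20 °C throughout. The design asks which RNAs change in warmth, whether such changes are still seen 3 generations after the return to 20 °C, and what loss of the methyltransferase changes. The labels call the libraries biological replicates, and p-values measure the spread between these libraries. The set-25 libraries carry identifiers from a separate number run, so handling and genotype cannot be told apart in that comparison.

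The libraries held 10678819 to 35483865 counts, and the palindromic and terminal-inverted repeats took 2955 to 11588 of them, or 0.0277% to 0.0363% of a library and 11.4% to 13.2% of its repeat counts. Ribosomal RNA, which the kit was meant to deplete, took 3.44% to 4.95% of each wild-type library, but 11.7%, 4.01% and 26.3% of set-25 libraries 1, 2 and 3. The third set-25 library was also the shallowest. The row of set-25 itself had 59.1, 59.2 and 50.7 CPM in set-25 worms, against 69.7, 65.9 and 66.7 CPM in control worms. It therefore stayed well counted in the mutant, and no count shows whether reads fall in the part the allele alters. Yolk, oocyte, germline and intestine markers had counts in every library.

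Most copies had few or no counts. Of the 11522 copies, 4552 had no count in any of the 12 libraries, a share of 39.5%, close to the 38.2% of the other repeat copies. Counts were spread unevenly among the rest: the 3 copies with the most counts held 12.5% of all counts of these families, and the top 100 copies held 33.5%. PALTTAA3_CE had the most counts of any family, 23954 over all libraries in 1524 copies, and 1 of them, PALTTAA3_CE_52, held 29.6%. PALTTAA1_CE followed with 17435 counts and PAL5A_CE with 13621. At the other end, PAL8B_CE had 66.3 counts in all, from 9 of its 22 copies. In 4 families a single copy held more than 50% of the counts: PALNN1_CE with 76.2%, TIR43YW1_CE with 67.2%, LONGPAL1 with 58.4% and PAL8B_CE with 57.3%. The smallest share of a top copy was that of PALTA5_CE, 2.90%. Copy lengths are not in the table, so levels were compared between groups and not between families.

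The table lists its rows in genome order: 99.29% of neighbouring gene rows that could be matched to the WBcel235 annotation followed each other by start position. Each copy could therefore be placed, by row order, between its neighbouring gene rows. Rows follow start positions and copy coordinates were not available, so a copy may lie inside the gene of the row before it. Where a copy is described below as between genes, this refers to row order. A gene was counted as spanning a copy only if it reached from the gene row before to the start of the gene row after. By this rule a gene spanned 17.2% of the palindromic and terminal-inverted copies, against 14.4% of the other repeat copies. Copies inside only the gene of the row before were not counted, so more copies may lie within genes. Chromosome IV held 20.6% of the palindromic and terminal-inverted copies, against 15.6% of all repeat copies. Chromosome II held 10.8% of them, against 14.6% of all repeat copies. Reads matching several near-identical copies, or a copy and an overlapping transcript, may be divided among rows. Of the nonzero copy values, 63% lay more than 1e-06 from a whole number, beside 57% of the nonzero gene values. Whether a copy's counts come from its own transcription or from a transcript running through it was not tested.

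Summed over all copies, in counts per 1000000 gene counts after scaling (CPM), the repeats were at 350.3, 301.6 and 324.4 CPM in F3 worms, 331.1, 338.4 and 330.2 CPM in F0 worms and 352.5, 344.6 and 363.6 CPM in set-25 worms, against 319.7, 323.1 and 322.2 CPM in control worms. Every F0 and every set-25 library was above every control library, while the F3 libraries lay on both sides of the controls. The mean was 9.91% higher in set-25 than in control worms, 3.60% higher in F0 than in control worms and 1.17% higher in F3 than in control worms. In the exact two-sided permutation test, p was 0.1 for set-25 and for F0, the smallest value that 3 against 3 libraries can give, and 0.7 for F3; adjusted over 24 such tests these became 0.24, 0.24 and 0.84. The sum of all other repeat copies was 14.5% higher in set-25 than in control worms, 4.04% lower in F0 than in control worms and 3.51% higher in F3 than in control worms, each without overlap (exact permutation p = 0.1, adjusted 0.24).

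**Figure D1:**
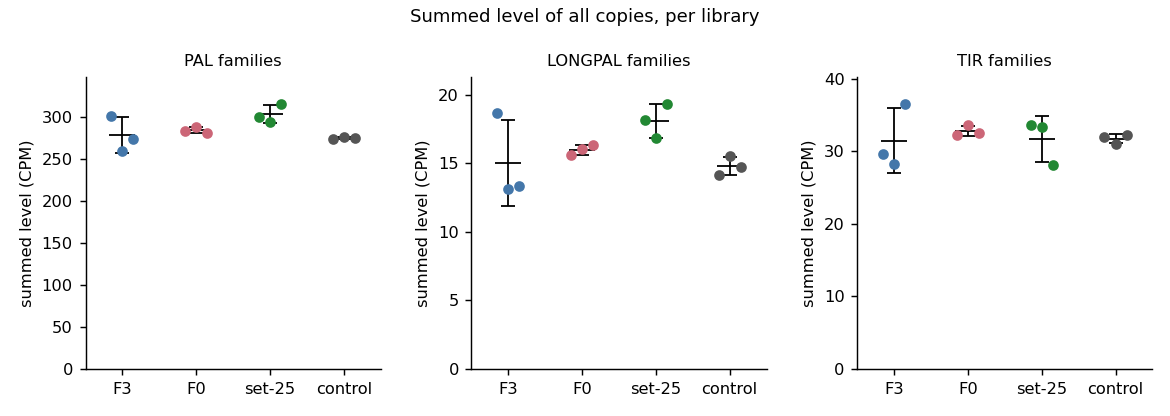
Summed level in CPM of all copies with PAL, LONGPAL and TIR names; each point is a library, the horizontal bar is the group mean and the whiskers are 1 SD (n = 3). PAL and LONGPAL sums of set-25 worms lie above those of control worms, while TIR sums overlap.

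LONGPAL copies stood at 18.1, 16.9 and 19.3 CPM in set-25 worms, against 14.2, 15.5 and 14.7 CPM in control worms, a mean 22.4% higher with no overlap (exact permutation p = 0.1, adjusted 0.24). PAL copies had a mean 10.4% higher in set-25 than in control worms, also with no overlap and the same p. TIR copies stood at 33.6, 33.4 and 28.0 CPM in set-25 worms, against 31.99, 30.98 and 32.2 CPM in control worms, and the means differed by less than the spread (exact permutation p = 1). Set-25 library 3, the library with the most ribosomal RNA, had the lowest TIR value. It also had the highest PAL and LONGPAL values of all libraries, at 316.2 and 19.3 CPM.

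In set-25 worms 5 of the 34 families rose and 1 fell in edgeR's quasi-likelihood test of family sums, with Benjamini-Hochberg adjustment over all 158 repeat families tested and a threshold of 0.05. Among all families tested, 17.1% rose and 2.53% fell, so the share called here was close to that background. The median log2 fold change of the 34 families was 0.14, beside 0.12 over all families tested, and 79.4% of the 34 had a positive value, beside 71.5% of all families. In 8 families all 3 set-25 libraries were above all 3 controls, and in 2 families all were below, where 31.6% and 7.59% of all families did so. A family sum can move through 1 copy, so each result is given below with and without its most counted copy.

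**Figure D2:**
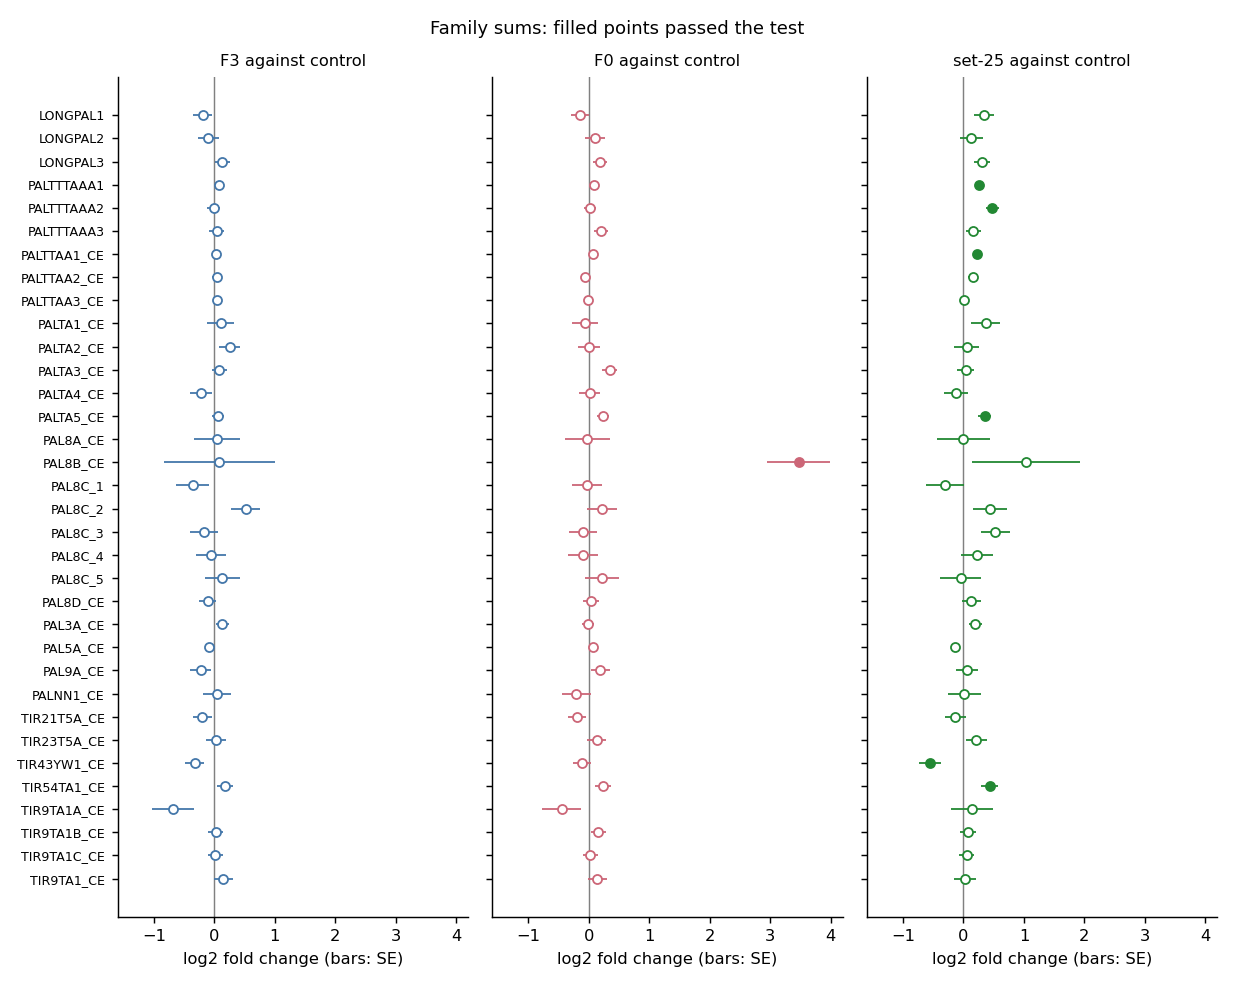
Log2 fold change of each family sum against control for F3, F0 and set-25 worms, with 1 standard error; filled points passed the test. The set-25 panel holds 6 filled points, the F0 panel only PAL8B_CE, and the F3 panel none.

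The lowest adjusted p-values were those of PALTTTAAA families. PALTTTAAA2, with 862 copies, stood at 21.9, 20.4 and 26.7 CPM in set-25 worms, against 14.3, 18.8 and 15.3 CPM in control worms. All 3 set-25 libraries were above all 3 controls and also above all F3 and F0 libraries, which ranged between 15.4 and 17.2 CPM. It rose by a log2 fold change of 0.47 (SE 0.11, edgeR adjusted p = 0.00257), and by 0.38 without its top copy (adjusted p = 0.0120). Among its copies with a mean of at least 1 count, 78 had a higher and 35 a lower mean CPM in set-25 than in control worms, so that 69.0% were higher, beside 52.5% of the other repeat copies at that level.

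PALTTTAAA1 stood at 33.2, 35.0 and 33.1 CPM in set-25 worms, against 29.5, 28.7 and 26.5 CPM in control worms, without overlap. It rose by a log2 fold change of 0.26 (SE 0.07, edgeR adjusted p = 0.0111), but without PALTTTAAA1_146, which held 49.1% of its counts, the value was 0.13 (adjusted p = 0.367). Of the 108 PALTTTAAA1 copies with a mean of at least 1 count, 59 had a higher mean in set-25 than in control worms, or 54.6%. The third family of this name, PALTTTAAA3, did not pass the test, with a log2 fold change of 0.16.

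PALTTAA1_CE, the family with the second most counts, stood at 57.5, 55.7 and 56.4 CPM in set-25 worms, against 47.8, 48.9 and 48.6 CPM in control worms. The groups did not overlap, and the log2 fold change was 0.22 both with all copies (SE 0.07, edgeR adjusted p = 0.0211) and without the top copy (adjusted p = 0.0135). Of its 243 copies with a mean of at least 1 count, 151 had a higher mean in set-25 than in control worms, or 62.1%.

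PALTA5_CE stood at 15.9, 13.9 and 16.4 CPM in set-25 worms, against 12.5, 11.9 and 11.4 CPM in control worms. It rose by a log2 fold change of 0.35 (SE 0.11, edgeR adjusted p = 0.0255), with the same 0.35 without its top copy. TIR54TA1_CE stood at 3.14, 2.83 and 2.49 CPM in set-25 worms, against 2.06, 2.03 and 2.34 CPM in control worms, and rose by 0.43 (SE 0.14, adjusted p = 0.0375). Its groups did not overlap either, and without its top copy the value was 0.53 (adjusted p = 0.0261). TIR54TA1_CE was also above every control library in F0 worms, at 2.42, 2.61 and 2.50 CPM, without a call. In F3 worms, at 2.38, 2.52 and 2.34 CPM, it was narrowly above them too, again without a call. PALTA5_CE was above every control library in F0 worms, at 14.9, 13.9 and 13.1 CPM. It was not called there (edgeR adjusted p = 0.155), but was with only the 6 libraries compared (adjusted p = 0.0218).

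TIR43YW1_CE was the family that fell. It stood at 2.65, 2.77 and 2.34 CPM in set-25 worms, against 3.84, 3.94 and 3.86 CPM in control worms, a log2 fold change of -0.55 (SE 0.18, edgeR adjusted p = 0.0316). Without its top copy, TIR43YW1_CE_18, the family value was -0.05 (SE 0.26, adjusted p = 0.917). Of its 6 copies with a mean of at least 1 count, that one included, 5 had a lower mean in set-25 than in control worms.

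**Figure D3:**
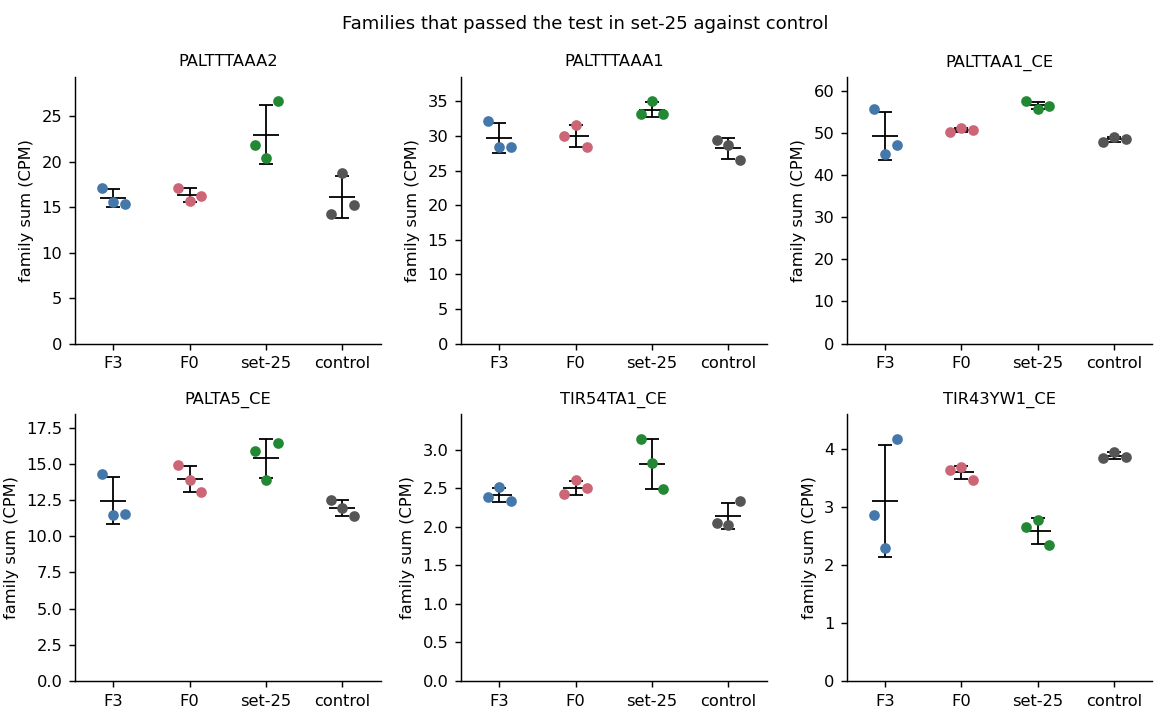
Family sums in CPM of the 6 families that passed the test in set-25 against control worms; each point is a library, bars are means and whiskers 1 SD (n = 3). Set-25 points lie above all control points in 5 panels and below them in the TIR43YW1_CE panel.

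Single libraries weighed on these calls. PALTTTAAA2 was called in all 6 fits that left out 1 library of the comparison, PALTTTAAA1 in 4, PALTTAA1_CE and PALTA5_CE in 2 each, TIR54TA1_CE in 1 and TIR43YW1_CE in 0, while their signs held in every one. TIR54TA1_CE was also not called by DESeq2 (adjusted p = 0.109) or with genes and repeats in 1 edgeR fit (adjusted p = 0.0662). The number of families called was 2 without set-25 library 1, and 3, 2 and 1 without control library 1, 2 and 3. Without both set-25 libraries of high ribosomal RNA, 0 families were called, with PALTTTAAA2 at 0.33 (adjusted p = 0.155) and PALTTAA1_CE at 0.20 (adjusted p = 0.251); that fit rests on 1 set-25 library, assumed to vary like the other groups. Yolk markers (6 of 6 in the table) summed to 65074 to 69945 CPM in set-25 worms, against 51621 to 55354 CPM in control worms. Muscle markers (2 of 2) summed to 794 to 1011 CPM in set-25 worms, against 494 to 580 CPM in control worms. Neuron markers (2 of 2) summed to 55.1 to 58.1 CPM in set-25 worms, against 76.7 to 80.3 CPM in control worms. In whole animals fewer cells of a type and less RNA per cell cannot be told apart, and the part of these shifts, and of ribosomal RNA, in the repeat values was not tested.

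Of the 11522 copies, 161 had enough counts to be tested singly, and they held 38.6% of the counts. A copy was tested if at least 3 of the 12 libraries reached 0.333 CPM by gene counts, and 51 of the 161 would have missed this without the libraries of 1 group. In set-25 worms 4 of them rose and 2 fell, where 5.79% of all 1088 tested repeat copies rose and 0.827% fell. PALTTTAAA2_45, on chromosome I between trx-4, a thioredoxin gene, and Y44E3A.4 (cdap-2), had 2.36, 3.01 and 2.46 CPM in set-25 worms, against 0.924, 1.08 and 1.09 CPM in control worms. The groups did not overlap: the log2 fold change was 1.38 (SE 0.15, edgeR adjusted p = 1.0e-05), and the call held in all 6 fits without 1 library. Of its neighbours, Y44E3A.4 rose by 0.34 (adjusted p = 0.00605) and trx-4 did not pass the test, with -0.03. PALTTTAAA2_45 was also above every control library in F0 worms, at 1.62, 1.31 and 1.41 CPM, without a call. The same held in F3 worms, at 1.27, 1.42 and 1.21 CPM. The neighbouring genes named here and below were chosen because the copies beside them were called.

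PALTTTAAA1_146, on chromosome V, had 17.5, 19.5 and 16.2 CPM in set-25 worms, against 15.03, 13.9 and 12.1 CPM in control worms. It rose by a log2 fold change of 0.39 (SE 0.09, edgeR adjusted p = 0.0155) without overlap. Both gene rows beside it rose as well, Y50D4C.6 by 0.35 (adjusted p = 0.0236) and sqv-6, a xylosyltransferase gene, by 0.22 (adjusted p = 0.00105). PALTTTAAA2_844, on chromosome III, had 0.843, 0.853 and 0.800 CPM in set-25 worms, against 0.320, 0.533 and 0.405 CPM in control worms. Its log2 fold change was 0.96 (SE 0.23, edgeR adjusted p = 0.0333), and that of the next gene row, Y37D8A.17 (npp-25, a nuclear pore gene), was 0.60 (adjusted p = 0.00389). The gene row before the copy, Y37D8A.16, did not pass the test, with -0.11 (adjusted p = 0.590). PALTTTAAA2_844 was also above every control library in F3 worms, at 0.685, 0.640 and 0.736 CPM, without a call. PALTTAA1_CE_1138, also on chromosome III, had 9.33, 12.33 and 5.33 counts in set-25 worms, against 1.5, 7.33 and 4.2 counts in control worms. Its log2 fold change was 1.77 (SE 0.42, adjusted p = 0.0162), but it entered the test only through the set-25 libraries, where it was high, and without the filter on low counts the adjusted p was 0.0615; the gene row after it, Y55B1BR.4 (magu-1), did not pass the test, with -0.13.

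The most counted copy of all, PALTTAA3_CE_52, fell. It had 18.8, 16.5 and 16.9 CPM in set-25 worms, against 22.1, 21.4 and 22.2 CPM in control worms, a log2 fold change of -0.33 (SE 0.08, edgeR adjusted p = 0.0131). On chromosome I its row follows that of Y37E3.10 (eif-2alpha, encoding a subunit of a translation initiation factor). That gene fell by 0.35 on the log2 scale (edgeR adjusted p = 1.3e-06). The gene row after the copy, Y37E3.11 (pcyt-2.1), did not pass the test, with -0.10 (adjusted p = 0.162). TIR43YW1_CE_18, on chromosome II, had 1.60, 1.42 and 1.60 CPM in set-25 worms, against 2.96, 2.50 and 2.70 CPM in control worms. Its log2 fold change was -0.83 (SE 0.20, adjusted p = 0.0202), and neither gene row next to it had enough counts to be tested.

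**Figure D4:**
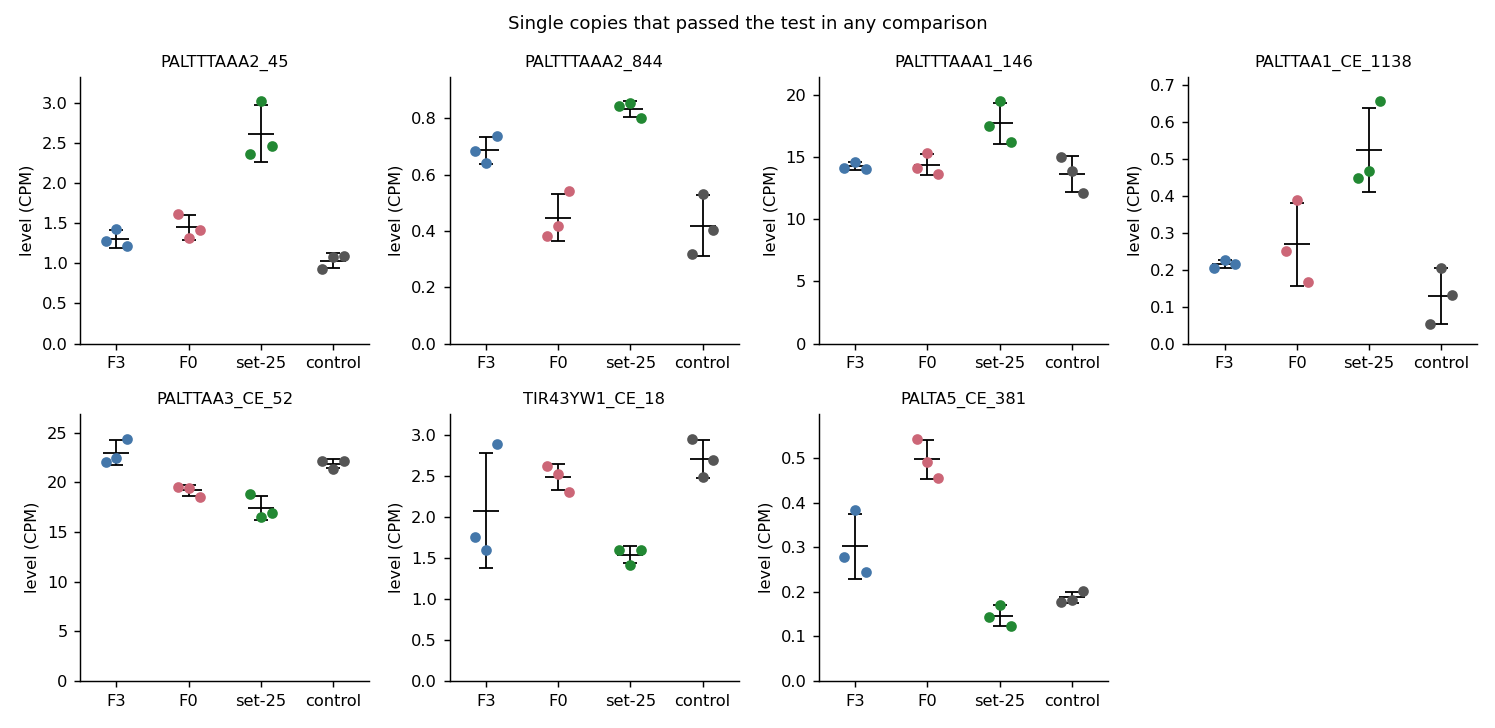
Level in CPM of the 7 single copies that passed the test in any comparison; each point is a library, bars are means and whiskers 1 SD (n = 3). PALTTTAAA2_45 in set-25 worms lies well above the other groups. PALTA5_CE_381 is highest in F0 worms, and its F3 points lie between the F0 and the control points.

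The copy calls also moved with single libraries. Beside PALTTTAAA2_45, the other 5 copies lost their call in 3 or 4 of the 6 fits, always with the same sign. Without the filter on low counts PALTTTAAA2_844 and PALTTAA3_CE_52 were not called either (edgeR adjusted p = 0.457 and 0.0767), nor was PALTTTAAA2_844 by DESeq2 (adjusted p = 0.136). The number of copies called was 1 without set-25 library 2, 2 without control library 1 and 1 without control library 3. Over the tested copies, Pearson's r between the log2 fold change of a copy and that of the gene row before it (130 copies) was 0.06 in set-25, 0.32 in F0 and -0.08 in F3 against control worms, and 0.36 in F3 against F0 worms. With the gene row after (125 copies) it was 0.11, 0.13, 0.02 and 0.07 in the same order. With a gene spanning the copy (25 copies) it was -0.19, -0.36, 0.02 and -0.11. For all other tested repeat copies it was 0.24, 0.21, 0.15 and 0.17 with the gene row before (714 copies). With the gene row after (701 copies) theirs was 0.18, 0.27, 0.08 and 0.17, and with a spanning gene (162 copies) 0.04, -0.20, 0.09 and -0.29. These values describe copies that share libraries.

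In F0 worms 1 of the 34 families rose and 0 fell in the same edgeR test, where 6.96% of all repeat families rose and 10.8% fell. The median log2 fold change was 0.03, beside 0.00 over all families. In 7 families all F0 libraries were above all controls and in 1 all were below, where 16.5% and 17.7% of all families did so. The family that rose was PAL8B_CE, the least counted of all 34. It had 14.5, 18.0 and 19.5 counts in F0 worms, against 2.3, 2.5 and 0.5 counts in control worms. F3 worms had 2.5, 0.5 and 1.5 counts and set-25 worms had 1.5, 3.0 and 0.0 counts, so that F0 worms stood above every other library. The fitted log2 fold change was 3.47 (SE 0.52, edgeR adjusted p = 2.0e-05) and was called in all 6 fits that left out 1 library, at 2.92 to 3.91; with so few counts in control worms its size depends on the fit. PAL8B_CE entered the test only through the F0 libraries, where it was high; without the filter on low counts the adjusted p was 4.0e-05.

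Most of the PAL8B_CE counts came from 1 place. The rows of copies 7 and 8 lie on chromosome V, between those of F15E11.15 (pud-3) and F15E11.12 (pud-4). These genes are named for proteins that are more abundant in daf-2 insulin receptor mutants. Together these copies had 43 counts over the F0 libraries, or 82.7% of the family, against 3.33 counts over the control libraries. Copy 8 had 10, 11 and 12 counts in F0 worms, against 1, 1 and 0 counts in control worms. The other 20 copies, of which 7 had any count, had 9 counts over the F0 libraries, against 2 over the control libraries. The gene rows on both sides moved in the same direction. F15E11.15 had 55.3, 52.0 and 62.8 CPM in F0 worms, against 8.46, 5.31 and 8.18 CPM in control worms, a log2 fold change of 2.96 (SE 0.18, edgeR adjusted p = 9.9e-07). F15E11.12 had 29.8, 27.0 and 35.9 CPM in F0 worms, against 2.91, 1.85 and 2.01 CPM in control worms, a log2 fold change of 3.79 (SE 0.14, adjusted p = 8.1e-12). Without copy 8 the family had too few counts to be tested.

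**Figure D5:**
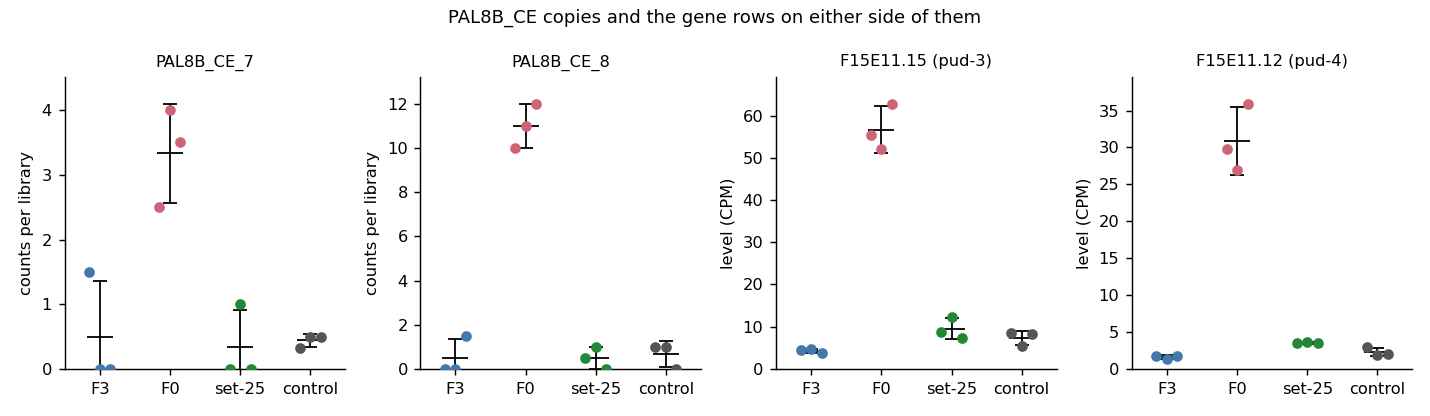
Counts per library of PAL8B_CE copies 7 and 8, and the level in CPM of the gene rows on either side of them; points are libraries, bars means and whiskers 1 SD (n = 3). All 4 features are higher in F0 worms than in the other 3 groups.

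Tests of single copies called 1 of 161 in F0 worms, where 8% of all tested repeat copies were called. PALTA5_CE_381, on chromosome V between grsp-1 and the neuropeptide-like gene nlp-26, had 18.5, 16.5 and 16 counts in F0 worms, against 5.0, 6.5 and 6.5 counts in control worms. F3 worms had 8.5, 12 and 7 counts. Every F3 library lay above every control library and below every F0 library in CPM, but the copy was not called in F3 worms. In F0 worms it rose by a log2 fold change of 1.44 (SE 0.26, edgeR adjusted p = 0.00291), without overlap and in all 6 fits without 1 library. It entered the test only through the F0 libraries, where it was high; without the filter on low counts the adjusted p was 0.0456. Neither neighbour passed the test, grsp-1 with 0.69 (adjusted p = 0.111) and nlp-26 with -0.16. The number of copies called was 3 without F0 library 2 (1 higher, 2 lower), 2 without control library 1 and 2 without control library 2 (all higher), and 5 without control library 3 (2 higher, 3 lower). PALTTAA3_CE_52 had 19.6, 19.5 and 18.5 CPM in F0 worms, against 22.1, 21.4 and 22.2 CPM in control worms. Its groups stood apart, but the edgeR test did not pass (log2 fold change -0.19, adjusted p = 0.140). PALTTAA3_CE_52 was called with only the 6 libraries compared (edgeR adjusted p = 0.0115) and with genes and repeats in 1 fit (adjusted p = 0.0367). Of the gene rows beside it, Y37E3.10 (eif-2alpha) fell by 0.32 on the log2 scale (edgeR adjusted p = 1.5e-06). The other, Y37E3.11, did not pass, with -0.09 (adjusted p = 0.164). F0 worms also differed in sperm markers, of which 35 of 35 were in the table and 30 had counts in every library: they summed to 187 to 260 CPM in F0 worms, against 7.58 to 43.8 CPM in control worms. Other marker sums also lay outside the control range in F0 worms. Yolk markers were at 42257 to 49345 CPM in F0 worms, against 51621 to 55354 CPM in control worms. Oocyte markers (7 of 7) were at 6822 to 7103 CPM in F0 worms, against 7434 to 7604 CPM in control worms, and intestine markers (4 of 4) at 1960 to 2027 CPM in F0 worms, against 2251 to 2299.9 CPM in control worms. Muscle markers were at 580.5 to 793 CPM in F0 worms, against 494 to 580.4 CPM in control worms, and neuron markers at 81.4 to 84.8 CPM in F0 worms, against 76.7 to 80.3 CPM in control worms. The part of these shifts in the repeat values was not tested.

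In F3 worms 0 of the 34 families passed edgeR's test, where 3.16% of all families did. At an unadjusted p under 0.05 there were 2 such families, or 5.88%, beside 8.86% of all families; the lowest adjusted p was 0.524, and DESeq2 also called 0. The median log2 fold change was 0.03, beside 0.01 over all families tested, and the values ranged between -0.68 and 0.52. All F3 libraries were above all controls in 2 families and below them in 3, where 5.06% and 8.86% of all families did so. Of the 161 single copies, edgeR and DESeq2 called 0, against 2.11% of all copies tested with edgeR; 10 had an unadjusted p under 0.05, or 6.21%, beside 8.82% of all copies, and the lowest adjusted p was 0.204. The F3 libraries differed among themselves: PALTTAA1_CE, for example, stood at 55.7, 44.9 and 47.3 CPM in F3 worms, against 47.8, 48.9 and 48.6 CPM in control worms. TIR43YW1_CE, the family that fell in set-25 worms, stood at 2.86, 2.29 and 4.17 CPM in F3 worms, against 3.84, 3.94 and 3.86 CPM in control worms. It was low in 2 of the 3 F3 libraries; without F3 library 3 it was called, at -0.59 (adjusted p = 0.00956), as was its copy TIR43YW1_CE_18, at -0.69 (adjusted p = 0.0105).

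Set directly against their warm-grown ancestors, F3 worms differed in 1 family. PAL8B_CE fell, with 2.5, 0.5 and 1.5 counts in F3 worms, against 14.5, 18.0 and 19.5 counts in F0 worms (log2 fold change -3.39, SE 0.52, edgeR adjusted p = 5.2e-05), where 3.8% of all repeat families fell. Here too it was tested only because of the F0 libraries, and without the filter on low counts the adjusted p was 8.8e-05. F15E11.15 and F15E11.12, the gene rows around its copies 7 and 8, fell by 3.75 and 4.24 on the log2 scale (adjusted p = 3.1e-07 and 7.4e-12). The number of families called was 2 without F3 library 1 or F0 library 1, and 4 without F3 library 3. No single copy passed edgeR's test, against 4.6% of all copies tested, with 22 of 161 at an unadjusted p under 0.05, or 13.7%, beside 15.8% of all copies, and 1 called by DESeq2. The closest was PALTTAA3_CE_52, with 22.1, 22.5 and 24.4 CPM in F3 worms, against 19.6, 19.5 and 18.5 CPM in F0 worms (log2 fold change 0.26, adjusted p = 0.0535). Its groups did not overlap. Of the gene rows beside it, Y37E3.10 (eif-2alpha) rose by 0.32 (edgeR adjusted p = 1.3e-06). The other, Y37E3.11, did not pass the test, with 0.07 (adjusted p = 0.283). Leaving out F3 library 2 or F3 library 3 gave 2 called copies each. This comparison and that of F0 with control worms share the F0 libraries, so the PAL8B_CE values are not independent between them.

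Genes known to silence repeats or to act on double-stranded RNA were read beside the repeats. The list held 52 names, synonyms among them, and 42 were found in the table and tested. In F0 worms, 2408 of all 14466 genes tested rose and 1743 fell, or 28.7% in either direction. Of the 42, 3 rose and 14 fell. Among them cec-4, a reader of methylated histone H3 at the nuclear edge, rose by a log2 fold change of 0.57 (SE 0.06, edgeR adjusted p = 1.5e-06). The log2 fold change of the helicase gene eri-6 was -0.77 (SE 0.07, adjusted p = 4.7e-07); the nuclease gene mut-7 fell by 0.27 (adjusted p = 6.3e-05), met-2 by 0.18 (adjusted p = 0.00115) and set-25 itself by 0.34 (adjusted p = 0.00189). In F3 worms 0 passed the test, where 0.263% of all genes did, and none went past a log2 fold change of 0.19 upward or -0.26 downward. In F3 against F0 worms 14 rose and 2 fell, where 1888 of all genes rose and 2503 fell, or 30.4% in either direction. In set-25 worms 3 rose and 5 fell, where 1287 of all genes rose and 1178 fell, or 17% in either direction. There the row of set-25 fell by 0.24 (SE 0.07, edgeR adjusted p = 0.0328) and the editing gene adr-1 by 0.15 (adjusted p = 0.0104). The 3 that rose were eri-9 by 0.25 (adjusted p = 0.00400), mut-2 by 0.22 (adjusted p = 0.00115) and mut-16 by 0.13 (adjusted p = 0.0301). The list was chosen with earlier results of these data known, and the genes named from it were picked after their values were seen.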

How the data were processed

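Total RNA depleted of ribosomal RNA was made into stranded, paired-end libraries, as the labels' protocols say. A single table of estimated counts per gene or repeat copy was deposited by the authors, and the submitters' processing notes name TopHat2 2.1.0, featureCounts 1.5.1 and DESeq2 1.8.1 without saying which step each served. For the genome build, the strand setting and the handling of reads matching several places, the files and labels used here give no statement. Values were rounded before testing, family values after summing their copies; 2 ribosomal RNA families were left out.

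Library sizes and TMM scaling came from the gene rows. edgeR 4.0.16 (limma 3.58.1, R 4.3.3) fitted its quasi-likelihood model to all 12 libraries, with 1 term per group, after filterByExpr, separately for repeat families, single copies and genes; the code was checked on simulated counts. P-values were adjusted by the Benjamini-Hochberg method over all features of a kind, and 0.05 was the threshold. DESeq2 1.42.0 was an alternative. Sums were compared by exact permutation tests. Families and copies were named by rule if called in any comparison or among the 3 with the most counts; PALNN1_CE, LONGPAL1 and PALTTTAAA3 were added after their values were seen. The members, lists and alternatives were chosen with earlier results of these data known. Replicate numbers did not pair libraries: correlations of same-numbered deviations ran between -0.207 and 0.116.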

Additional observations from a re-analysis of the deposited data

How the results depend on the processing

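Every family and copy named as called kept its sign under every alternative run that gave it a value. Among the alternatives for single named families and copies, 56 lost a call, 11 gained one and 852 kept their side of the threshold. These include comparisons in which the family or copy was not called and so could not lose a call.

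In F0 against control worms, where 1 family and 1 copy were called, the number of families was 0 without each family's top copy, 3 with only the 6 libraries compared and 2 with genes and repeats in 1 fit. The 1 copy called was higher in F0 worms. The number of copies was 3 without the low-count filter (2 higher, 1 lower), 2 with only the 6 libraries (1 higher, 1 lower) and 5 with genes and repeats in 1 fit (1 higher, 4 lower), and DESeq2's own test called 1 other copy, which was lower. Leaving out 1 library gave 1 to 5 copies, and 1 family in each fit.

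In F3 against control worms, leaving out 1 library gave 0 to 1 families and 0 to 1 copies. In set-25 against control worms, it gave 1 to 4 families and 1 to 6 copies. There, the number of copies called, 6 in all, was 3 without the low-count filter and 3 without set-25 libraries 1 and 3, which left 0 families.

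In F3 against F0 worms, where 1 family and 0 copies were called, the number of families was 0 without top copies and 2 with genes and repeats in 1 fit. The number of copies was 2 without the filter, 1 with DESeq2 size factors, 1 without ribosomal RNA in the library sizes, 1 with DESeq2's own test and 3 with genes and repeats in 1 fit. Leaving out 1 library gave 1 to 4 families and 0 to 2 copies.

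The difference in the summed level ran, without 1 library, between 8.35% and 11.3% for set-25, between 2.80% and 4.07% for F0 and between -2.69% and 4.88% for F3 against control worms, and between -6.07% and 1.23% for F3 against F0 worms. With the replicate block, used although the numbers pair nothing, the calls were 5 families and 6 copies for set-25, 1 family and 2 copies (1 higher, 1 lower) for F0, 0 and 0 for F3 against control worms, and 1 family and 1 copy for F3 against F0 worms. Under the block TIR54TA1_CE lost its set-25 call (0.43, edgeR adjusted p = 0.0599). DESeq2 gave no adjusted p for PALTA5_CE_381 in F0 or PALTTAA1_CE_1138 in set-25 worms. The cause of these shifts was not tested. Depth is a limit: 1.40% of copies could be tested singly, and PAL8B_CE rests on 66.3 counts. Set-25 library 3 held 2955 counts in these families.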
